A study of Mus musculus with 24 samples.

Results

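Retina and pineal gland of control mice were compared in the middle of the light period, over all genes of the array with 1 probe set for each gene. The members are the 6 arrays of control mice at ZT6, 3 of retina and 3 of pineal gland, out of 24 arrays in all, and they were chosen by their sample titles. Of 18193 named genes on the array, 12928 passed the filter on low signals and were tested. All 6 pools came from C57BL/6J mice of both sexes, 2 months old, in which NeuroD1 was floxed (NeuroD1flox/flox) and Crx-cre was absent (Crx-cre-/-). They are therefore the unrecombined controls of a knockout study, and not a wild-type strain. The animals lived in 12 h of light and 12 h of darkness each day, and ZT6 is the middle of the light phase. Each pool held 6 retinas or 6 pineal glands, so that the error of a value is the spread between pools and not between mice. Control mice at ZT20, taken in the dark under dim red light, and conditional knockout mice at ZT6 (cKO, the same floxed alleles with Crx-cre+/-, Cre being driven by the promoter of Crx) serve here only to set the ZT6 control difference against another time and genotype, with 3 pools of each tissue in each.

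Pinealocytes, the main cells of the pineal gland, and the rod and cone photoreceptors of the retina are related cell types. Both develop under the homeobox factors Otx2 and Crx, and in fish and birds the pineal gland itself senses light. In mammals the pinealocyte is a neuroendocrine cell that turns tryptophan into serotonin and, at night, serotonin into melatonin, on command of sympathetic nerves. The retina is a layered neural tissue in which photoreceptors signal through bipolar cells to ganglion cells, with horizontal and amacrine cells between them, Mueller glia across the layers, and the pigment epithelium and the lens as neighbours. A phototransduction cascade runs from the opsin through the G protein transducin and a cyclic GMP phosphodiesterase to a cation channel opened by cyclic GMP.

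The deposited values are signal intensities, and a difference below is the retina mean less the pineal mean of log2(signal + 16), with its standard error from a fit over all arrays, so that a positive value means higher in retina. The offset of 16 understates the differences of dim genes. Their floor can be read from 70 olfactory and vomeronasal receptor genes (chemoreceptors), with median signals of 4.75 in retina and 5.07 in pineal gland. At the other end, signals reached 14829 in retina and 15616 in pineal gland. The 109 tested genes whose mean was above 8000 in both tissues differed by at most 0.64 on the log2 scale. The threshold and the highest signals leave little room for more, so this value says nothing on likeness. Of the genes named below, Crx, Sag, Rbp3, Pde6g and Glul had signals near or above 8000 in every pool of both tissues. Whether such signals were compressed was not tested. Pools of one tissue correlated at 0.979 to 0.986 in retina and 0.990 to 0.993 in pineal gland (Pearson, log2 scale, across genes), against 0.673 to 0.721 across the tissues. The array medians averaged 119 ± 8.72 units in retina and 145 ± 14.5 in pineal gland (SD, n = 3 each), and no batch of arrays is named in the labels. The median difference of all tested genes was -0.31, and -0.056 after quantile normalisation, so a gene whose difference lies near -0.31 sits with the bulk of genes. Because whole tissues were measured, fewer cells of a type and less RNA per cell cannot be told apart.

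Both tissues carried their defining genes. Tph1, the first enzyme of pineal serotonin synthesis, read 106, 112 and 113 in the retina pools, against 11349.5, 11770.1 and 11543 in the pineal pools. Gnat1, the alpha subunit of rod transducin, read 14829, 12837 and 12191 in the retina pools, against 72.6, 1266 and 3829.6 in the pineal pools. The retina pools are alike for both genes and do not overlap with the pineal pools, but the pineal pools differ widely among themselves for Gnat1. Neurod1, a bHLH factor of both photoreceptors and pinealocytes and the gene floxed in all these mice, read 6967, 6554 and 5701 in the retina pools, against 4647, 5268 and 5008 in the pineal pools. All retina pools lay above all pineal pools, and the difference of 0.36 ± 0.80 did not pass over the 24 arrays (adjusted p = 0.71). The spread in that fit includes the cKO pools, and in a fit of the 6 control ZT6 arrays alone the same difference of 0.36 had an SE of 0.096 and an adjusted p of 0.00044. In the cKO pools at ZT6 Neurod1 read 639, 774 and 293 in retina, against 83.5, 29.1 and 30.9 in pineal gland, so that the signals of both tissues were lower than in all control pools.

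Most of the tested genes differed between the tissues, and among genes other than clones, predicted and sex-linked genes the difference reached 7.25 for Cryaa and -7.37 for Cnpy1. Of 12928 genes 8537 passed at an adjusted p below 0.05 (66%), of which 2498 were higher in retina (19.3% of genes tested) and 6039 were higher in pineal gland (46.7%). This split moves with the overall level of the arrays, and the counts of lists below are to be read against it. After quantile normalisation 9281 genes passed (71.8%), 4263 of them higher in retina (33%) and 5018 higher in pineal gland (38.8%). With array medians centred the shares were 67%, 30.1% and 36.9%, and with arrays scaled to one trimmed mean 70.4%, 32.1% and 38.3%. Between the quantile-normalised and the deposited scale 7516 genes passed in the same direction and 0 in opposite ones. Of the genes that passed, 1424 were at least 2-fold higher in retina (11%) and 2904 in pineal gland (22.5%). Of these 4328 genes 4323 passed in the same direction after quantile normalisation, but the 2-fold counts moved with the scaling, to 1777 and 2252 after quantile normalisation, 1737 and 2280 with array medians centred and 1743 and 2273 with trimmed means equalised. At least 8-fold higher were 413 genes in retina (3.19%) and 516 in pineal gland (3.99%), here called retina-restricted and pineal-restricted, and all of them still passed after quantile normalisation. Which side had more such genes turned with the scaling: 8-fold counts were 511 and 446 after quantile normalisation, 491 and 424 with array medians centred and 487 and 439 with trimmed means equalised. The pools of the 2 tissues did not overlap for 8972 genes (69.4%), of which 8265 also passed (63.9%). A difference of under 2-fold, passed or not, was found for 8595 genes (66.5%).

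**Figure D1:**
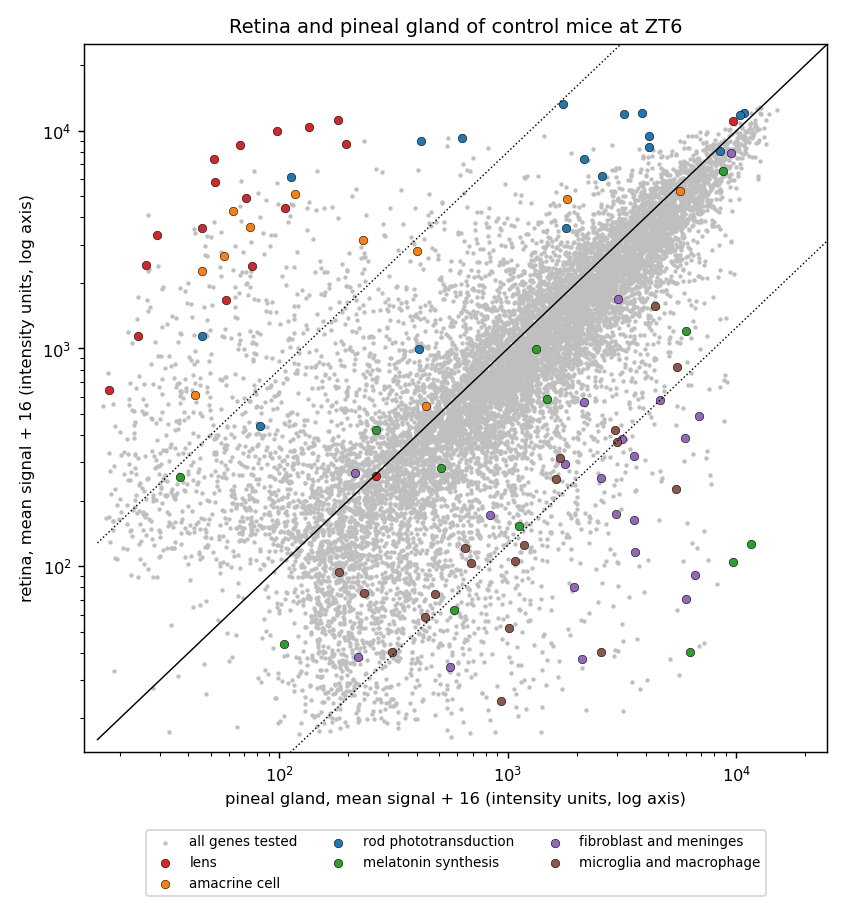
Mean signal + 16 of each tested gene in retina (vertical, intensity units, log axis) against pineal gland (horizontal, intensity units, log axis), control mice at ZT6, n = 3 pools each. The solid line marks equal signals and the dotted lines an 8-fold difference. Most lens and amacrine cell genes lie at upper left and most fibroblast genes at lower right. Macrophage genes lie below the line of equality, and melatonin synthesis genes run from lower right to above that line. Rod genes run from the upper left to the line of equality.

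The pineal pools were not uniform for retinal genes. The 413 retina-restricted genes read a median of 2.66% of their retina mean in pineal pool 1, 3.23% in pool 2 and 4.70% in pool 3, and pool 3 was the highest of the pineal pools for 290 of them (70.2%). The array medians of pineal pools 1 to 3 rose in the same order, at 130, 147 and 159 units. The part of array level in this order was not tested. The spread was wide for the 5 retina-restricted rod genes, at 0.546%, 2.64% and 10.8% in pineal pools 1 to 3, and smaller for the 7 amacrine cell genes, at 0.791%, 0.917% and 3.15%. Gnat1 also varied in the other pineal pools, with 958, 732 and 172 in control at ZT20 and 115, 76.9 and 2234 in cKO at ZT6. In the other direction, the 516 pineal-restricted genes read a median of 4.43%, 3.75% and 5.57% of their pineal mean in retina pools 1 to 3. Retina pool 3 was the highest of the retina pools for 294 of them (57.0%), with array medians of 125, 124 and 109 units in retina pools 1 to 3. Without pineal pool 3 there were 444 retina-restricted and 504 pineal-restricted genes. The source of retinal transcripts in the pineal pools was not tested.

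Members of the rod phototransduction cascade ranged from genes at which retina far exceeded the pineal gland to genes with strong signals in both tissues. Subunits of the same protein differed in this. Of 20 list members 18 were matched to a probe set and 17 were tested. Of these 16 were higher in retina, 0 were higher in pineal gland, and the median difference was 1.67, against -0.31 for all genes. Cnga1, a subunit of the rod channel, read 6421, 5771 and 6097 in the retina pools, against 2.2, 55.8 and 231 in the pineal pools (6.48 ± 0.64, adjusted p = 5.3e-10). Rcvrn (recoverin), the calcium sensor that restrains opsin phosphorylation, read 9474, 8863 and 8459.8 in the retina pools, against 2.9, 235 and 961 in the pineal pools (5.74 ± 0.92, adjusted p = 3.4e-06). Both genes were near the chemoreceptor floor in pineal pool 1 and clearly above it in pool 3. Without pineal pool 1 the differences of Cnga1, Rcvrn and Gnat1 were 5.52, 4.17 and 2.58, and without pineal pool 3 they were 7.40, 7.02 and 5.30, against 6.48, 5.74 and 4.13 with all pools, and all passed. Pde6a, the alpha subunit of the rod phosphodiesterase, read 1113, 989 and 1274 in the retina pools, against 18.9, 24.1 and 47.2 in the pineal pools (4.67 ± 0.22, adjusted p = 7.4e-17), and its partner Pde6b differed by 1.01 ± 0.10, with 9046, 8147 and 7979 in the retina pools, against 4242, 3970.1 and 4223 in the pineal pools. Within one enzyme the alpha subunit differed by 4.67 and the beta subunit by 1.01. The guanylate cyclase activator Guca1b differed by 4.11 ± 0.34 and its neighbour in function Guca1a by 1.19 ± 0.11. Opsin kinase (Grk1, 2.41), phosducin (Pdc, 2.00), the anchor of Rgs9 (Rgs9bp, 1.78), the transducin gamma subunit (Gngt1, 1.67), the sodium-calcium exchanger (Slc24a1, 1.27) and the channel subunit Cngb1 (0.99) were also higher in retina.

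Other members of the rod cascade had signals close to equal on the probe sets used. Those of Sag and Pde6g lay near or above 8000 units, where a small difference says nothing on likeness. Sag, the rod arrestin that quenches the activated opsin, read 12437, 11891 and 10954 in the retina pools, against 9952, 10921 and 10294 in the pineal pools. The retina pools lay just above the pineal pools, by 0.18 ± 0.062 (adjusted p = 0.013), a call that was lost without pineal pool 1 (0.15, adjusted p = 0.062) or retina pool 1 (0.14, adjusted p = 0.08). Pde6g, the inhibitory gamma subunit of the phosphodiesterase, read 8469, 8002 and 7692 in the retina pools, against 8149, 8678 and 8458 in the pineal pools and did not pass (-0.066 ± 0.068, adjusted p = 0.4). It passed as higher in retina after quantile normalisation (0.11, adjusted p = 0.045) and with trimmed means equalised (0.20, adjusted p = 0.031). With array medians centred it did not pass (0.18, adjusted p = 0.09). Gnb1, the beta subunit of transducin and of many other G proteins, differed by 0.15 ± 0.059 on the probe set used, a call lost without any one of 4 pools (0.12 and adjusted p = 0.12 without retina pool 1), and by 1.29 on another one whose pineal signals were lower. Probe sets differed in size for Gngt1 too, from 1.67 on the brightest to 4.68 on the dimmest, and in sign for Rgs9, with 1.25 on the set used and -1.85 on another. Without pineal pool 1 the rod list had 14 of 17 members higher in retina and a median of 1.51, and without pineal pool 3 it had 15 and 1.78.

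The cone list divided into members far higher in retina and members higher in pineal gland. Of 10 tested members 4 were higher in retina and 5 were higher in pineal gland, with a median of -0.58. Higher in retina were the middle-wavelength opsin Opn1mw (5.44 ± 0.35, adjusted p = 4.5e-14), the short-wavelength opsin Opn1sw (1.99 ± 0.27), the cone arrestin Arr3 (4.64 ± 0.30) and the cone phosphodiesterase gamma subunit Pde6h (5.69 ± 0.44). Opn1sw read 4002, 3299 and 3389 in the retina pools, against 657, 913 and 1152 in the pineal pools, so that pineal signals were well above the floor. Higher in pineal gland were the cone channel subunit Cngb3, the exchanger Slc24a2 (-1.37 ± 0.16), the catalytic phosphodiesterase subunit Pde6c, the cone transducin beta subunit Gnb3 (-0.88 ± 0.088) and the cone transducin alpha subunit Gnat2. Cngb3 read 438, 526 and 584 in the retina pools, against 3393, 3973 and 4235 in the pineal pools (-2.87 ± 0.16, adjusted p = 3.4e-15). Pde6c read 2904, 2375 and 2641 in the retina pools, against 5871, 6301 and 6131 in the pineal pools (-1.21 ± 0.14, adjusted p = 6.6e-09), and Gnat2 read 4796, 4507 and 4164 in the retina pools, against 6443, 7123 and 6575 in the pineal pools (-0.58 ± 0.11, adjusted p = 2.2e-05). For these 3 genes every pineal pool lay above every retina pool. Rods far outnumber cones in the mouse retina, and levels per photoreceptor were not measured here.

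**Figure D2:**
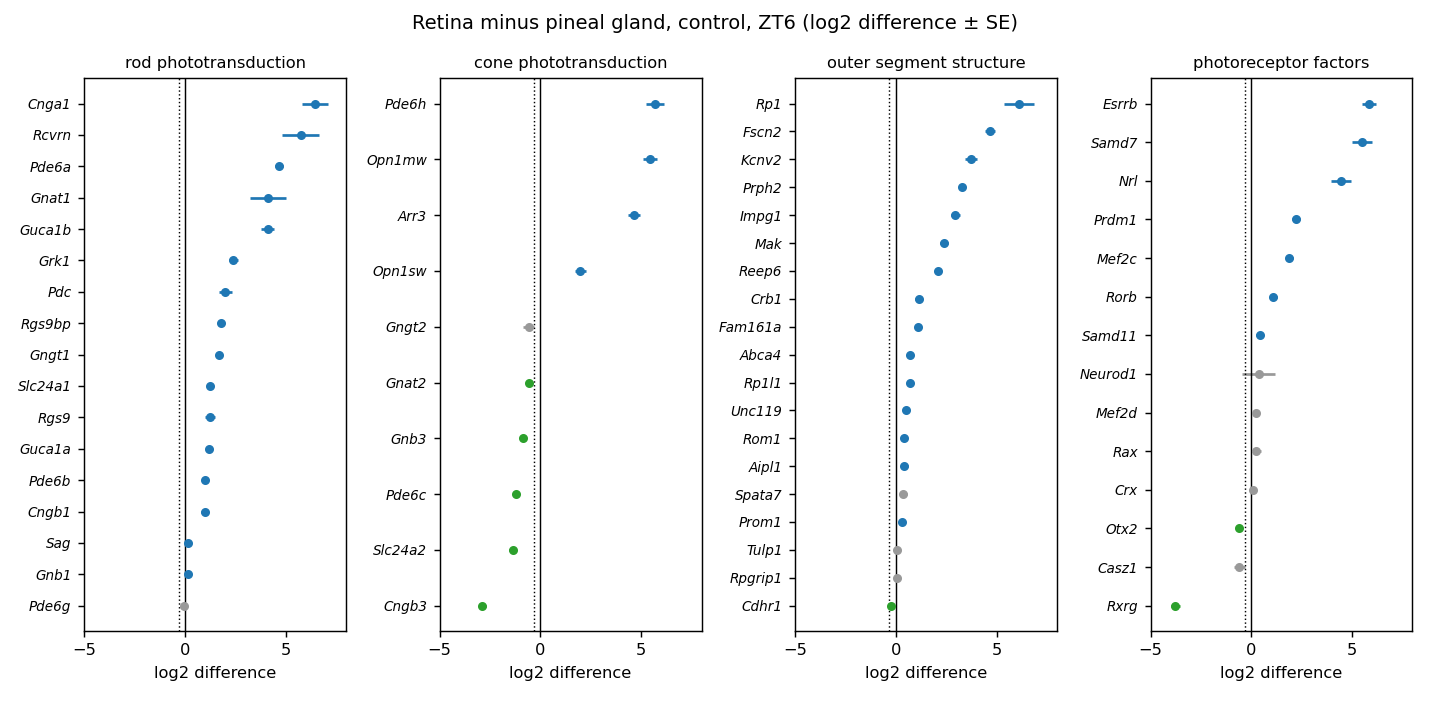
Log2 difference, retina minus pineal gland, with its standard error, of each tested member of 4 photoreceptor lists (control, ZT6, 3 pools each). Blue points passed and are higher in retina, green points passed and are higher in pineal gland, grey points did not pass; the dotted line marks the median of all genes, -0.31. The cone list and the factors run from strongly retinal to strongly pineal members, and the rod and outer segment lists from strongly retinal members to values near 0.

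Outer segment genes, which shape the stacked membrane discs of photoreceptors, were mostly higher in retina and by very different amounts. Of 19 tested members 15 were higher in retina and 1 was higher in pineal gland (median 0.71). The largest difference was that of Rp1, a microtubule protein of the outer segment axoneme, with 10039, 8100.1 and 8626 in the retina pools, against 13, 118 and 524 in the pineal pools (6.12 ± 0.74, adjusted p = 2.7e-08), and 5.05 without pineal pool 1 or 7.16 without pineal pool 3. Fscn2, an actin bundler, differed by 4.67 ± 0.26, Prph2 (peripherin 2), a disc rim protein, by 3.28 ± 0.15, and the interphotoreceptor matrix proteoglycan Impg1 by 2.95 ± 0.22. Rom1, the partner of peripherin 2 at the disc rim, read 10603, 9543 and 9334 in the retina pools, against 7346, 7678 and 7130.1 in the pineal pools and differed by 0.41 ± 0.082. Aipl1, a chaperone of the phosphodiesterase (0.41 ± 0.17, adjusted p = 0.04), Prom1, a membrane protein of nascent discs (0.31 ± 0.082), and the retinoid transporter Abca4 (0.71 ± 0.11) were likewise within 2-fold. The call of Aipl1 was lost without any one of 4 pools (adjusted p of up to 0.15, without pineal pool 1). Tulp1 (0.062 ± 0.15, adjusted p = 0.73) and Rpgrip1 (0.049 ± 0.11, adjusted p = 0.71) did not pass on the deposited scale, but passed as higher in retina under each other scaling of arrays. The photoreceptor cadherin Cdhr1 was the member higher in pineal gland (-0.26 ± 0.068, adjusted p = 0.0013), a value near the median of all genes that did not pass after quantile normalisation (-0.087). The photoreceptor cilium list, which covers intraflagellar transport and Bardet-Biedl genes, centred on -0.010, with 8 members higher in retina, 5 higher in pineal gland and 17 of 30 not passing, and 16 and 4 after quantile normalisation. Its largest difference was that of Bbs7 (2.07 ± 0.15, adjusted p = 9e-13).

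Among the transcription factors of photoreceptors, Nrl, Esrrb and Samd7 were far higher in retina, Otx2 and Rxrg were higher in pineal gland, and Crx did not pass on the deposited scale. Crx, the homeobox factor of both cell types, read 9475, 8465 and 8159 in the retina pools, against 7997, 8529 and 8345 in the pineal pools. The pools overlapped and the difference was 0.067 ± 0.070 (adjusted p = 0.41). Under other scalings Crx passed as higher in retina, at 0.32 with array medians centred, 0.23 after quantile normalisation and 0.33 with trimmed means equalised. Otx2, which acts upstream of Crx, read 4749, 4617 and 4199 in the retina pools, against 6412, 6955 and 7016 in the pineal pools and was higher in pineal gland (-0.59 ± 0.091, adjusted p = 1.8e-06). Nrl, the leucine zipper factor that sets rod fate, read 8754, 8535 and 8045 in the retina pools, against 119.7, 373 and 1081 in the pineal pools (4.45 ± 0.49, adjusted p = 4e-09). The pineal pools for Nrl ran in the same order as for Gnat1, with pool 3 highest, and the difference was 3.69 without pool 1 and 5.20 without pool 3. The orphan nuclear receptor Esrrb (5.84 ± 0.37), the photoreceptor repressor Samd7 (5.49 ± 0.49), Prdm1, which holds photoreceptor precursors back from bipolar fate (2.22 ± 0.18), Mef2c (1.89 ± 0.16) and Rorb (1.09 ± 0.16) were also higher in retina. Rxrg, a retinoid X receptor that in the retina marks cones, read 208, 115 and 138 in the retina pools, against 1916, 2426 and 2379 in the pineal pools and was higher in pineal gland (-3.76 ± 0.23, adjusted p = 1.9e-14). Of 14 tested factors 7 were higher in retina and 2 in pineal gland, or 10 and 2 after quantile normalisation. Rax (0.23 ± 0.23, adjusted p = 0.37) and Mef2d (0.26 ± 0.14, adjusted p = 0.11) did not pass on the deposited scale. Both passed as higher in retina under each other scaling of arrays.

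The promoters of photoreceptor genes that differed by less than 2-fold between the tissues often held the sequence TAATCC. This is the core of sites bound by Crx and Otx2. Windows of 300 bases, 250 before and 50 after each RefSeq start (GRCm38.p6), were searched on both strands for 4 motifs, each counted on its own: TAATCC, the cyclic AMP response element TGACGTCA, and the E-boxes CAGATG and CAGCTG, a class of sequence bound by bHLH factors such as Neurod1. Of the 17 rod, cone and outer segment list members that differed by less than 2-fold, 13 had a window and 7 of these held TAATCC (53.8%). With their differences these were Abca4 (0.71), Aipl1 (0.41), Cngb1 (0.99), Gnat2 (-0.58), Rpgrip1 (0.049), Sag (0.18) and Unc119 (0.50), so not all were near equal. Of the 26 members at least 2-fold higher in retina 18 had a window and 4 held it (22.2%). Cngb3, Slc24a2 and Pde6c, at least 2-fold higher in pineal gland, were in neither group. The share with TAATCC was 7.28% of 10421 tested genes with a window, 7.03% of retina-restricted genes, 7.69% of pineal-restricted genes and 8.14% of all genes with a window. The E-box CAGCTG was in 29.1% of retina-restricted, 21.7% of pineal-restricted and 18.4% of tested genes with a window, and in 4 of the 13 photoreceptor genes within 2-fold (30.8%) and 4 of the 18 higher in retina (22.2%). CAGATG was in 23% of retina-restricted, 17.6% of pineal-restricted and 13.9% of tested genes, and in 2 of the 13 (15.4%) and 3 of the 18 (16.7%). TGACGTCA was in 1.28%, 1.1% and 3.5% of those gene groups, and in 1 of the 13 and 0 of the 18. These are shares of letters in a window, with no test, and binding was not measured. The 250 bases upstream of the start are shown for 4 genes under 2-fold on the probe set used and for Cnga1. Cnga1 is the rod gene with the largest difference, and Crx and Rbp3 stand outside those 3 lists. The genes shown were chosen after their values and matches were seen. The motif TAATCC or its reverse complement GGATTA is in capitals.
Sag (chr1:87803430-87803679, + strand): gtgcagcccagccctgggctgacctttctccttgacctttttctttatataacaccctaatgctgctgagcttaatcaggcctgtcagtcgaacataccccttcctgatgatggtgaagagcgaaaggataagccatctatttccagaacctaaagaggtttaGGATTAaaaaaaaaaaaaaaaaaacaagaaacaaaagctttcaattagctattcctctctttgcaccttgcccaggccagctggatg
Crx (chr7:15879956-15880205, - strand): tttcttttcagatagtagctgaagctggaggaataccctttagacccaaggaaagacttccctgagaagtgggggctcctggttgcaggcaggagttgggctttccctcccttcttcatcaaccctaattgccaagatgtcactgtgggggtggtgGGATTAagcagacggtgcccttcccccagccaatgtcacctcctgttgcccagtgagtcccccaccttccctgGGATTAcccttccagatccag
Rbp3 (chr14:33953753-33954002, + strand): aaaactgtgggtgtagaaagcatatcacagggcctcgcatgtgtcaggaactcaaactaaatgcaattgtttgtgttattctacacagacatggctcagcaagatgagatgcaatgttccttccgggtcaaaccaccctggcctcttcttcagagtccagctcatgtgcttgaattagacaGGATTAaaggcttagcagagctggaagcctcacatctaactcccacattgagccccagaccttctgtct
Aipl1 (chr11:72037510-72037759, - strand): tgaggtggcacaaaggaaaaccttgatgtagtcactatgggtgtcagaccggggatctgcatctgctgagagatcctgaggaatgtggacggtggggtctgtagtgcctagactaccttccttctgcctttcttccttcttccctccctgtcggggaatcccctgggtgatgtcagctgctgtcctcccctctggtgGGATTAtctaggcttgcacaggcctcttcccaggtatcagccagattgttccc
Cnga1 (chr5:72642753-72643002, - strand): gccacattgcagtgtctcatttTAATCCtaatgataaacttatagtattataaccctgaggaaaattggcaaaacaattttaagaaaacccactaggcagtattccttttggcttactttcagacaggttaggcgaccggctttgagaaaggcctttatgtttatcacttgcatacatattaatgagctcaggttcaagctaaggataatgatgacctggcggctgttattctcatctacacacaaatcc
In Sag the match lies 87 to 82 bases before the start, in Rbp3 69 to 64, in Aipl1 53 to 48, in Crx 94 to 89 and again 21 to 16, all on the opposite strand, and in Cnga1 228 to 223 on the strand of the gene.

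Rbp3, the retinoid carrier between photoreceptors and pigment epithelium, read 12865, 11826 and 11355 in the retina pools, against 11649.5, 12368 and 10721 in the pineal pools on the probe set used, and these pools overlapped (0.054 ± 0.062, adjusted p = 0.45). Under each other scaling of arrays Rbp3 passed as higher in retina. A dimmer probe set of Rbp3 differed by 1.56, with higher values in retina. The rest of the visual cycle was mostly higher in retina: of 10 tested members 7 were higher there and 2 were higher in pineal gland. The isomerase Rpe65 of the pigment epithelium (5.64 ± 0.30, adjusted p = 9e-16), the photoreceptor dehydrogenase Rdh12 (4.76 ± 0.23), the retinaldehyde carrier Rlbp1 (3.36 ± 0.17) and the opsin Rgr (3.30 ± 0.25) stood highest in the comparison. The 11-cis retinol dehydrogenase Rdh5 read 719, 554 and 441 in the retina pools, against 3256, 3812 and 4006 in the pineal pools and was higher in pineal gland (-2.68 ± 0.27, adjusted p = 6.8e-10), as was the retinol receptor Stra6 (-1.13 ± 0.21).

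Genes of the photoreceptor ribbon synapse, at which vesicles are held on a plate near calcium channels, were present in both tissues. Of 18 tested members 9 were higher in retina and 6 in pineal gland (median 0.22). The calcium-binding protein Cabp4, which tunes the photoreceptor calcium channel, read 5315, 4244 and 4044 in the retina pools, against 47.2, 92.1 and 157 in the pineal pools (5.42 ± 0.26, adjusted p = 1e-16). The adhesion protein Elfn1 (2.78 ± 0.25), the vesicular glutamate transporter Slc17a7 (2.20 ± 0.15) and the scaffolds Bsn (1.45 ± 0.22) and Pclo (1.44 ± 0.15) were higher in retina too. The calcium channel pore Cacna1f differed by 1.12 ± 0.22 and its subunit Cacna2d4 by 0.54 ± 0.14, or 0.21 over all its probe sets, which did not pass. The complexins of ribbon synapses went opposite ways, Cplx4 by 0.25 ± 0.078 (not passed without pineal pool 1, 0.18) and Cplx3 by -0.71 ± 0.096 (adjusted p = 2e-07). The ribbon protein gene Ctbp2 (0.18 ± 0.12, adjusted p = 0.2) and Stx3 (0.10 ± 0.087, adjusted p = 0.31) did not pass, and of the other probe sets of Stx3 one differed by -2.23. On the probe sets used, both genes passed as higher in retina under each other scaling of arrays.

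**Figure D3:**
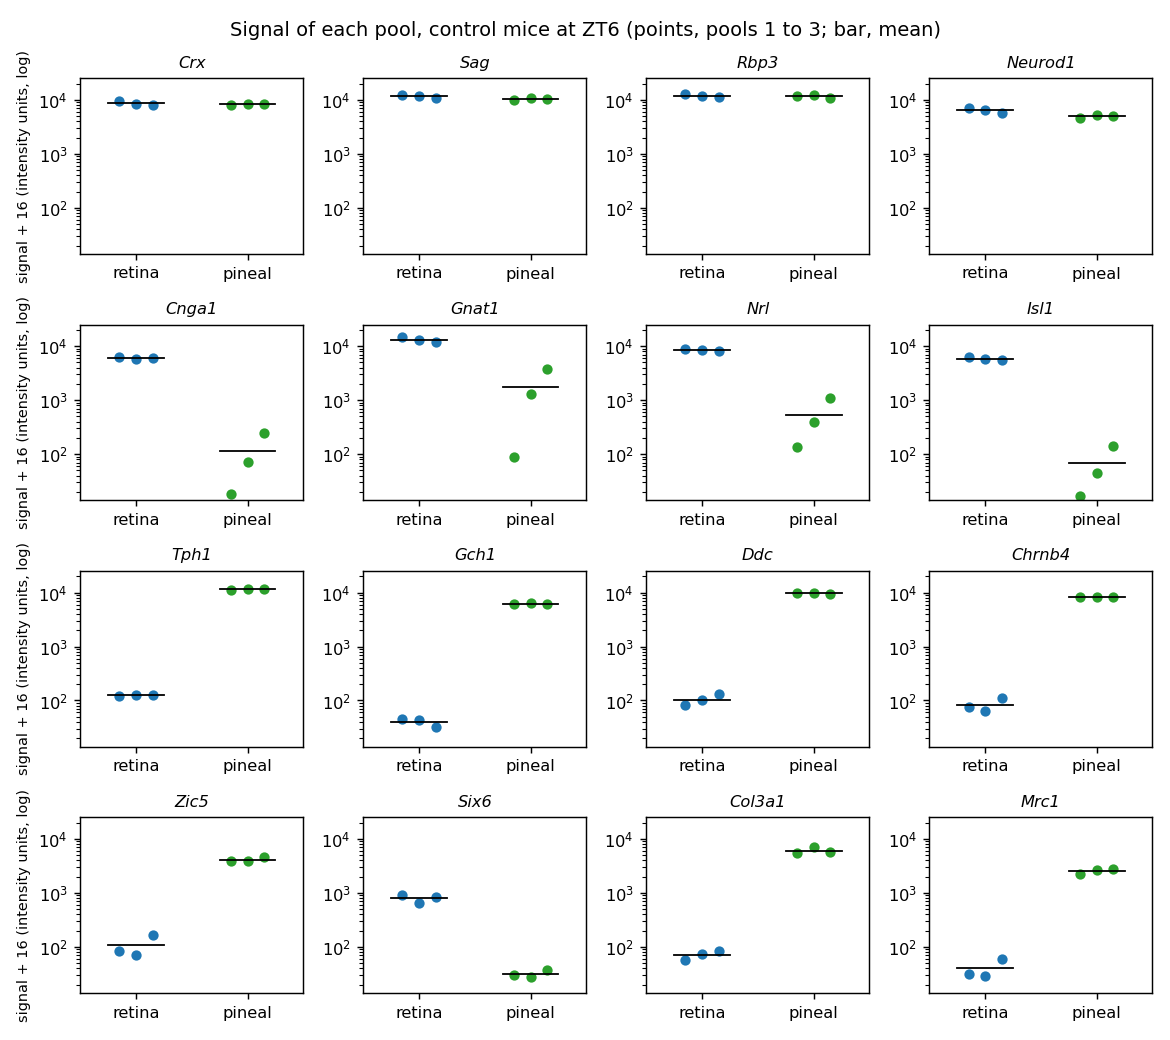
Signal + 16 of 16 genes in each pool (log axis; retina blue at left, pineal gland green at right; points from left to right are pools 1 to 3, bars are means; control, ZT6). Crx, Sag and Rbp3 differ by under 2-fold; Cnga1, Gnat1, Nrl and Isl1 are high in retina and spread over a wide range in the pineal pools; Tph1, Gch1, Ddc, Chrnb4, Zic5, Col3a1 and Mrc1 are higher in pineal gland.

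Genes of amacrine, horizontal and ganglion cells were mostly far higher in retina. Of 11 tested amacrine cell genes 9 were higher in retina and 0 in pineal gland, with a median of 3.83. Gad1, which makes GABA, read 5852, 4655 and 4829.8 in the retina pools, against 30.2, 46.9 and 227 in the pineal pools (5.84 ± 0.40, adjusted p = 1.9e-13), and the calcium binder Calb2 (6.40 ± 0.39) and the factors Tfap2b (5.78 ± 0.33) and Tfap2c (5.66 ± 0.30) differed alike. All 5 tested horizontal cell genes were higher in retina, led by Calb1 (5.17 ± 0.26) and the homeobox factor Prox1 (4.65 ± 0.28). Of 13 ganglion cell genes 10 were higher in retina, among them the neurofilament Nefl (6.33 ± 0.56, adjusted p = 4.5e-11), the POU factor Pou4f1 (5.08 ± 0.22) and Thy1 (3.57 ± 0.25). The ganglion cell list also held 2 genes higher in pineal gland. Slc17a6, a vesicular glutamate transporter, read 2834, 2190.4 and 2416 in the retina pools, against 6452, 6968 and 7127 in the pineal pools (-1.47 ± 0.12, adjusted p = 9.5e-12), and the bHLH factor Atoh7 read 53, 50 and 36.6 in the retina pools, against 204, 289 and 223 in the pineal pools (-2.02 ± 0.25, adjusted p = 3.7e-08).

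Bipolar cell genes were higher in retina for 11 of 14 tested members and higher in pineal gland for 2 (median 1.86). Isl1, a LIM factor of bipolar, amacrine and ganglion cells, read 6272, 5896 and 5481 in the retina pools, against 0.6, 29 and 127 in the pineal pools (6.96 ± 0.66, adjusted p = 1.9e-10), the largest difference of the list, at 6.20 without pineal pool 1 and 7.75 without pool 3. The secretagogin gene Scgn (3.80 ± 0.26), the cone bipolar factor Vsx1 (2.98 ± 0.19) and Prkca, a kinase of rod bipolar cells (1.12 ± 0.13), followed. Car8 (-1.84 ± 0.13, adjusted p = 7.1e-13) and Cabp5 (-1.23 ± 0.20, adjusted p = 3.4e-06) were higher in pineal gland although they are used as bipolar markers in retina. Pcp2 differed by 2.43 on the probe set used and by 5.87 on another. Of the transmitter receptors of neurons 24 of 30 tested members were higher in retina and 3 in pineal gland. The AMPA receptor subunit Gria2 read 3444, 3573 and 2808 in the retina pools, against 14.1, 24.6 and 57.9 in the pineal pools (6.19 ± 0.31, adjusted p = 2.6e-16), and the kainate subunit Grik1 (5.93 ± 0.34), the GABA receptor subunits Gabra2 (5.92 ± 0.35) and Gabrr2 (5.02 ± 0.27) and the glycine receptor subunit Glra2 (5.81 ± 0.25) had pineal signals of at most 60 units. Gria1 (-1.87 ± 0.19, adjusted p = 8.4e-10), Grik3 (-2.14 ± 0.29) and the NMDA subunit Grin2c (-3.72 ± 0.30) were higher in pineal gland.

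Mueller glia genes were higher in retina for 12 of 18 tested members and higher in pineal gland for 5. The receptor Gpr37 (5.38 ± 0.30, adjusted p = 1.5e-15) and the glutamate transporter Slc1a3 (3.20 ± 0.19) differed most. The glutamine synthetase gene Glul, often used to mark Mueller cells, read 10172, 9629 and 9079 in the retina pools, against 7894, 8617 and 8464 in the pineal pools and differed by 0.21 ± 0.060. Sox9 (-0.88 ± 0.19), Apoe (-0.92 ± 0.13) and Hes1 (-0.79 ± 0.21) were higher in pineal gland. Of 9 astrocyte genes 3 were higher in retina, led by Aldoc (2.38 ± 0.15), and 4 in pineal gland, among them Gfap (-1.17 ± 0.25, adjusted p = 0.00017) and the connexin gene Gja1. Gja1 read 1004, 1076 and 5146 in the retina pools, against 6936, 7429 and 7138 in the pineal pools (-2.0 ± 0.38, adjusted p = 3.4e-05), with retina pool 3 apart from the other retina pools and a difference of -2.77 without it. The myelin list had 2 of 6 tested members higher in retina, one of them Mbp, and 3 in pineal gland. Cldn11, a claudin of myelin and of the arachnoid barrier, read 25.1, 26.2 and 40.3 in the retina pools, against 3181, 3849 and 3887 in the pineal pools (-6.30 ± 0.39, adjusted p = 2.1e-14). Mbp (myelin basic protein) gave opposite signs, with 1.66 on the probe set used and -2.81 to -2.52 on 5 others, so no direction is given for it. Mog, Mag, Mobp, Olig1 and Olig2 stayed below the filter.

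Lens and pigmented tissue adjoin the retina, and genes of both were present in the retina pools. Of 18 tested lens genes 16 were at least 8-fold higher in retina and 0 were higher in pineal gland (median 6.01). Cryaa, an alpha crystallin, read 8306, 5079 and 8719 in the retina pools, against 11.8, 64.6 and 31.3 in the pineal pools (7.25 ± 0.59, adjusted p = 7.8e-12). Mip, the water channel of lens fibres, read 3653, 948 and 5332 in the retina pools, against 12.6, 10.5 and 15.9 in the pineal pools (6.53 ± 1.00, adjusted p = 1.7e-06), and Bfsp1, a filament protein of lens fibres, read 2283, 209.6 and 2480.4 in the retina pools, against 43.8, 44.1 and 39.1 in the pineal pools (4.22 ± 0.89, and 5.36 without retina pool 2). Retina pool 2 was the lowest of the retina pools for all 3. The summed signal of the 18 list genes was 118251, 59439 and 114774 in the retina pools, against 10139, 11844 and 10711 in the pineal pools, and without retina pool 2 the median difference was 6.55. Cryab, which many tissues express, did not pass (0.18 ± 0.16, adjusted p = 0.34). Melanosome genes were high in retina pool 3 instead. Mlana read 117, 124 and 1952 in the retina pools, against 2.6, 20.5 and 1.7 in the pineal pools (3.86 ± 0.75, adjusted p = 5.4e-05) and Tyrp1 read 299.8, 286 and 2273 in the retina pools, against 191, 184 and 202 in the pineal pools (1.53 ± 0.55, adjusted p = 0.016). Without retina pool 3 Mlana differed by 2.58 (adjusted p = 0.0012) and Tyrp1 by 0.57, which did not pass (adjusted p = 0.29). The pigment epithelium and melanocyte list summed to 6014, 5605 and 13720.2 in the retina pools, against 12948, 14388 and 14712 in the pineal pools, its 12 tested members had 6 higher in retina and 3 in pineal gland, and without retina pool 3 these were 5 and 3 and the median was 0.37, against 1.07 with it. Trpm1, a channel of bipolar cells and melanocytes, followed the same pool, with 174, 261 and 1512 in the retina pools, against 55, 106 and 64.4 in the pineal pools (2.29 ± 0.57, adjusted p = 0.00091, and 1.37 without that pool). Mitf, the melanocyte and pigment epithelium factor, was higher in pineal gland in every pool, with 1214, 1180.5 and 1696 in the retina pools, against 8608, 9217 and 9246 in the pineal pools (-2.73 ± 0.13, adjusted p = 1.4e-16). The part of lens and pigment tissue in the other differences was not tested.

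**Figure D4:**
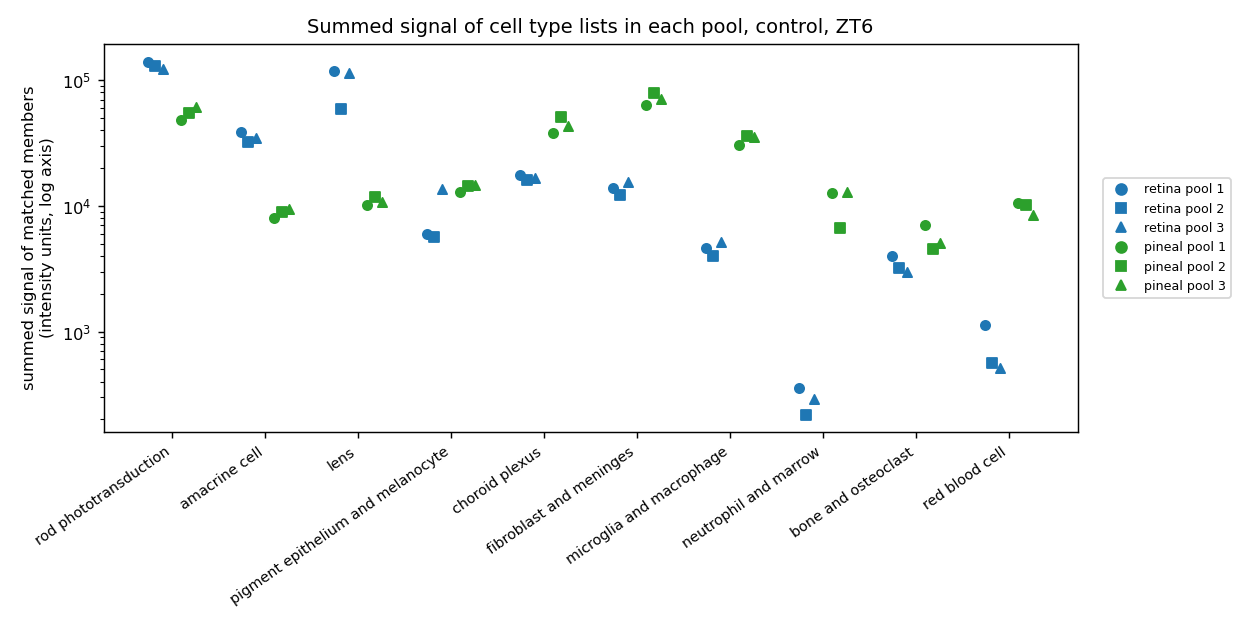
Summed signal of the matched members of 10 cell type lists (intensity units, log axis) in each pool; retina blue at left and pineal gland green at right of each position, with circles, squares and triangles for pools 1, 2 and 3 (control, ZT6). Lens genes are low in retina pool 2, pigment genes high in retina pool 3, and neutrophil genes low in pineal pool 2.

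The pathway to serotonin and melatonin held some of the largest differences in favour of the pineal gland. Of 15 list members 14 were matched to a probe set and 13 were tested. Of these 2 were higher in retina and 10 in pineal gland (median -1.35). No value is given here for Asmt, the last enzyme of melatonin synthesis. Tph1, whose pools are given above, differed by -6.52 ± 0.30, adjusted p = 4.4e-17. Ddc, the decarboxylase that yields serotonin, read 65.5, 84.2 and 115 in the retina pools, against 9693, 9899 and 9406 in the pineal pools (-6.56 ± 0.20, adjusted p = 5.1e-21). Gch1, which starts the synthesis of the cofactor tetrahydrobiopterin, read 29.3, 26.7 and 16.9 in the retina pools, against 6193, 6372 and 6144 in the pineal pools (-7.29 ± 0.21, adjusted p = 5.1e-21). For these 3 genes the pineal pools differed little among themselves and all retina pools were low. Aanat, which makes the melatonin precursor and whose transcript is low by day in rodents, read 56.6, 43.7 and 40.7 in the retina pools, against 387, 608 and 708 in the pineal pools (-3.18 ± 0.24, adjusted p = 2.1e-12). Genes of cofactor synthesis and recycling were higher in pineal gland as well: Pcbd1 (-2.35 ± 0.20), Spr (-1.35 ± 0.19) and, near the median of all genes, Qdpr (-0.42 ± 0.066, and -0.17 with array medians centred, which did not pass). So were the monoamine oxidases Maob (-2.88 ± 0.20) and Maoa (-0.85 ± 0.18), which degrade serotonin. Tph2, the neuronal hydroxylase, read 253, 188 and 279 in the retina pools, against 21.6, 18.8 and 21.8 in the pineal pools and was higher in retina (2.79 ± 0.24, adjusted p = 3.4e-11), and so was the vesicular monoamine transporter Slc18a2 (0.68 ± 0.17).

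Receptors for the nerves of the pineal gland, of which 13 of 22 list members were matched and 10 tested, were higher in retina for 3 and in pineal gland for 6. Over all genes tested the shares were 19.3% and 46.7%, so these counts lie near them. The nicotinic acetylcholine receptor subunits Chrnb4 and Chrna3, which pair in autonomic ganglia, were pineal. Chrnb4 read 59.7, 46.6 and 94.2 in the retina pools, against 8179, 8382 and 8124 in the pineal pools (-6.68 ± 0.21, adjusted p = 1.3e-20), and Chrna3 read 246, 185 and 234 in the retina pools, against 7714, 8338 and 7093 in the pineal pools (-5.03 ± 0.13, adjusted p = 1.1e-21). Higher in pineal gland were also the PACAP receptor Adcyap1r1 (-2.38 ± 0.27), the adrenergic receptors Adra2c (-2.20 ± 0.24) and Adra1b (-1.51 ± 0.25), and Chrna7 (-1.05 ± 0.15). The 3 dopamine receptors tested were retinal. Drd4, which in retina sits on photoreceptors, read 1425, 843 and 1096 in the retina pools, against 34, 32.1 and 54.5 in the pineal pools (4.33 ± 0.25, adjusted p = 5.2e-15), Drd2 differed by 4.55 ± 0.26 and Drd1 by 4.02 ± 0.22. The VIP receptor Vipr2 did not pass (-0.11 ± 0.31, adjusted p = 0.76). Of 16 tested genes of dense-core granules 6 were higher in each tissue, to be read against the same shares. The granins Chga (-1.59 ± 0.16, adjusted p = 1.1e-09), Chgb (-1.09 ± 0.081) and Scg2 (-0.65 ± 0.093) and the granule membrane protein Ptprn (-2.19 ± 0.19) were higher in pineal gland, and Vgf (4.02 ± 0.24), Resp18 (4.90 ± 0.25) and the priming factor Cadps (3.98 ± 0.18, adjusted p = 4.7e-17) were higher in retina.

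Genes of cyclic AMP signalling, through which sympathetic input drives the gland, differed by isoform. Of 18 adenylyl cyclase and protein kinase A genes 5 were higher in retina and 10 in pineal gland, near the 19.3% and 46.7% of all genes, or 8 and 7 after quantile normalisation. The cyclases Adcy1 (2.38 ± 0.25, adjusted p = 2e-09), Adcy8 (1.93 ± 0.21) and Adcy5 (1.22 ± 0.18) were retinal. Adcy4 (-2.30 ± 0.23, adjusted p = 4.2e-10), Adcy7 (-2.20 ± 0.15), Adcy2 (-2.05 ± 0.17) and Adcy3 (-1.63 ± 0.17) were pineal, as was the regulatory subunit Prkar2b, with 1849, 1630.5 and 1836 in the retina pools, against 5456, 5835 and 6388 in the pineal pools (-1.72 ± 0.11, adjusted p = 6.6e-14). Among 21 phosphodiesterase genes 7 were higher in each tissue, or 11 in retina and 6 in pineal gland after quantile normalisation. Outside the photoreceptor subunits, Pde1b (2.55 ± 0.20, adjusted p = 6.1e-12) and Pde4b (1.27 ± 0.14) were higher in retina and Pde5a (-2.62 ± 0.21, adjusted p = 4.3e-12), Pde7b (-2.08 ± 0.24), Pde2a (-1.83 ± 0.22) and Pde8b (-1.59 ± 0.15) in pineal gland.

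Patterning factors differed in both directions. Of 10 tested eye field factors, which specify the eye from the forebrain, 9 were higher in retina and 0 in pineal gland. Six6 read 896, 644 and 839.8 in the retina pools, against 13.6, 11.3 and 21.7 in the pineal pools (4.68 ± 0.24, adjusted p = 4.2e-16), and Vax2, a factor of the ventral retina, read 1335, 911 and 878 in the retina pools, against 3.4, 15.2 and 1.3 in the pineal pools (5.57 ± 0.28, adjusted p = 2.5e-16). Six3 (3.84 ± 0.28), Meis2 (5.06 ± 0.26) and Lhx2 (2.47 ± 0.21) followed. Pax6, which also serves the developing pineal gland, differed by 1.42 ± 0.12 and had pineal signals of 1676, 1848 and 1893. Of 8 tested factors of the epithalamus and roof plate, the dorsal midline from which the gland grows, 7 were higher in pineal gland. Zic5 read 67.7, 54.8 and 149.8 in the retina pools, against 3820.3, 3857 and 4573 in the pineal pools (-5.36 ± 0.25, adjusted p = 5.2e-17). Zic2 (-4.80 ± 0.31), Zic4 (-4.13 ± 0.26), Zic1 (-3.19 ± 0.24) and the LIM factors Lhx4 (-1.97 ± 0.12) and Lhx9 (-1.63 ± 0.18) were pineal too. Retina pool 3 was the highest retina pool for each of the 5 pineal-restricted factors, at a median of 5.72% of the pineal mean against 1.68% and 1.95% in retina pools 1 and 2. Msx1 differed by -5.29 on the probe set used and by -1.83 on another. Barhl2, also a factor of amacrine and ganglion cells, was higher in retina (1.37 ± 0.18, adjusted p = 7.4e-08).

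Core clock genes ranged from -0.95 to 1.90 in their tissue difference. Of 21 tested clock genes 7 were higher in retina, 4 in pineal gland and 10 did not pass, or 15 and 2 after quantile normalisation. The repressor Cry1 read 3127, 2784 and 3295 in the retina pools, against 739, 848 and 836 in the pineal pools (1.90 ± 0.14, adjusted p = 9.7e-13), and Ciart (1.87 ± 0.21), Bhlhe41 (1.31 ± 0.24) and Per2 (0.96 ± 0.16) were also higher in retina. Npas2 (-0.95 ± 0.21, adjusted p = 0.00021) and Nfil3 (-0.95 ± 0.19) were higher in pineal gland. Arntl (0.24 ± 0.16, adjusted p = 0.18), Per1 (0.42 ± 0.22, adjusted p = 0.09), Nr1d1 (0.091 ± 0.21, adjusted p = 0.71) and Dbp (-0.031 ± 0.17, adjusted p = 0.88) did not pass on the deposited scale. Arntl and Per1 passed as higher in retina under each other scaling, and Nr1d1 after quantile normalisation and with trimmed means equalised. Ribosomal and respiratory chain genes lay near the bulk of genes: the ribosomal median was -0.31, that of mitochondrial respiration -0.45, and 0 of 14 and 0 of 20 tested members were higher in retina, against 13 and 18 higher in pineal gland, or 5 and 12 after quantile normalisation.

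Genes of vessels, coverings and blood cells were mostly higher in pineal gland. Over all genes tested 46.7% were higher there and 19.3% in retina, and the counts of short lists are to be read against these shares. Of 21 tested fibroblast and meningeal genes 0 were higher in retina and 20 in pineal gland (median -3.47). The collagen gene Col3a1 read 39.9, 57.8 and 67.2 in the retina pools, against 5389.7, 6944 and 5605 in the pineal pools (-6.41 ± 0.32, adjusted p = 2.2e-16), Col1a2 differed by -6.27 ± 0.28 and the proteoglycan gene Lum by -5.98 ± 0.33. Ptgds, a prostaglandin synthase, differed by only -0.26 ± 0.070, and by -0.081 after quantile normalisation, which did not pass. Of 18 endothelial and mural genes 1 was higher in retina and 15 in pineal gland. The clotting factor gene Vwf read 65.3, 55.3 and 76.1 in the retina pools, against 2902, 3215 and 2951 in the pineal pools (-5.23 ± 0.23, adjusted p = 3e-17), the glycoprotein gene Emcn differed by -4.35 ± 0.21, and Plvap, which forms the diaphragms of leaky capillaries, by -1.91 ± 0.24. The receptor Kdr was higher in retina (0.86 ± 0.16), and Flt1 (-0.35 ± 0.18, adjusted p = 0.09) and the tight junction gene Cldn5 (-0.50 ± 0.27, adjusted p = 0.11) did not pass. Of the blood barrier list 3 of 11 genes were higher in retina, namely Spock2 (2.50 ± 0.17), the lipid transporter Mfsd2a (1.89 ± 0.31) and Slc16a1 (0.57 ± 0.10), and 7 were higher in pineal gland, led by the efflux pump Abcb1a (-2.63 ± 0.23). Choroid plexus genes were higher in pineal gland for 12 of 14 members. Klotho (Kl) read 47.9, 26.4 and 46.1 in the retina pools, against 1482, 2797 and 2115 in the pineal pools (-5.23 ± 0.28, adjusted p = 8.1e-16), and the transthyretin gene Ttr, with strong signals in both tissues, read 9283, 8586 and 8035 in the retina pools, against 13673, 13717 and 13082 in the pineal pools (-0.64 ± 0.080). The summed choroid plexus list was 17628, 15992 and 16689 in the retina pools, against 37971, 51088 and 43402 in the pineal pools.

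All 19 tested microglia and macrophage genes were higher in pineal gland (median -2.80). Cd163 (-5.28 ± 0.28) and Mrc1, both of macrophages at brain borders, differed most, and Mrc1 read 15.4, 13.4 and 44.1 in the retina pools, against 2234, 2668 and 2711 in the pineal pools (-6.06 ± 0.27, adjusted p = 3.7e-17). P2ry12 (-0.92 ± 0.22), a gene of resident microglia, had the smallest difference of the list. Of 16 genes of antigen presentation and interferon response 15 were higher in pineal gland, with the class II genes H2-Eb1 (-6.27 ± 0.24, adjusted p = 2.4e-18), H2-Aa (-6.17 ± 0.27) and Cd74 (-5.82 ± 0.25) at the top. Of 6 mast cell genes 5 were higher in pineal gland, such as the protease Mcpt4 with 0.3, 0.5 and 0.6 in the retina pools, against 447, 521 and 671 in the pineal pools (-5.07 ± 0.26, adjusted p = 3.5e-16). Hdc, which makes histamine, was higher in retina (1.47 ± 0.32, adjusted p = 0.0002). All 7 neutrophil and marrow genes were higher in pineal gland, and S100a9 read 77, 48.6 and 15.6 in the retina pools, against 7022, 3438 and 6018 in the pineal pools (-6.52 ± 0.38, adjusted p = 7e-15). Their summed signal was 358, 219 and 293 in the retina pools, against 12624, 6649.7 and 12965 in the pineal pools, with pineal pool 2 lowest. Of 7 bone genes 5 were higher in pineal gland, against 46.7% of all genes. The osteoclast genes Ctsk (-3.29 ± 0.25) and Acp5 (-4.66 ± 0.44) were among the 5. Mmp13 read 6.2, 3.8 and 3.9 in the retina pools, against 1630.0, 689.7 and 961 in the pineal pools (-5.66 ± 0.45, adjusted p = 4.1e-12), with pineal pool 1 highest. Both red cell genes tested, Alas2 (-4.35 ± 0.25) and Hbb-b2 (-3.71 ± 0.31), were higher in pineal gland. How much of the 6039 genes higher in pineal gland these cells and tissues account for was not tested.

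**Figure D5:**
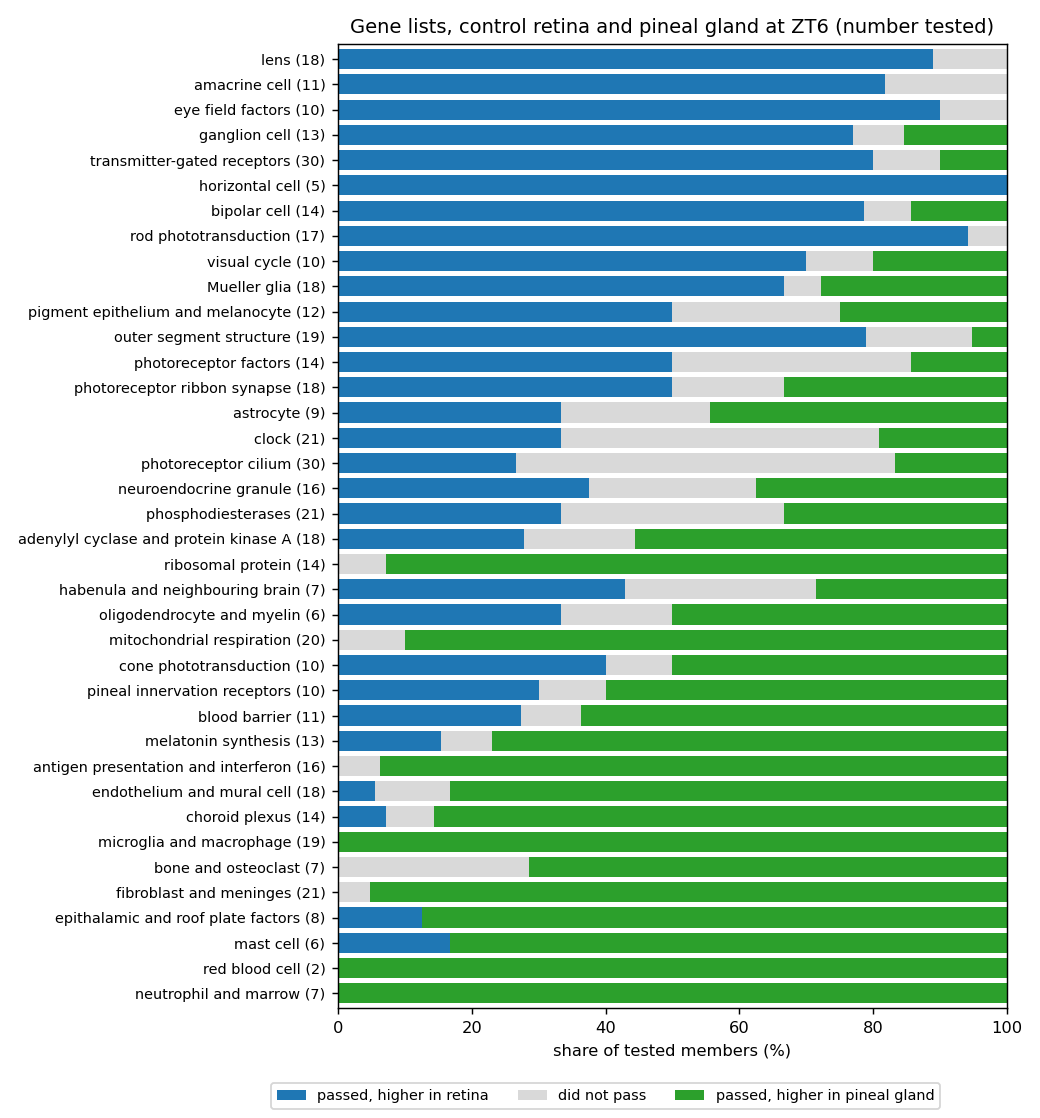
Share of tested members (%) of each of 38 lists that passed and were higher in retina (blue), did not pass (grey) or passed and were higher in pineal gland (green), control mice at ZT6; the number tested is in brackets and lists are ordered by their median difference. Over all genes the shares are 19.3%, 34% and 46.7%; neural and lens lists stand at the top, and blood, mast cell, roof plate and connective tissue lists at the bottom.

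The 15 largest differences in each direction, over genes other than clones, predicted and sex-linked genes, were led in retina by lens crystallins: Cryaa, Crygd, Crygs, Crygb, Cryba4, Cryba1 and Crygf, with Mip, made up 8 of the 15. The others were Isl1, Cnga1, the small GTPase Rit2 (6.93 ± 0.58), Fstl5 (6.60 ± 0.46), the tachykinin precursor Tac1 (6.53 ± 0.35), the antisense transcript Vax2os (6.51 ± 0.35) and Lamp5 (6.46 ± 0.36). The Vax2 gene differed by 5.57 ± 0.28, and whether these probe sets tell the strands apart was not tested. By that rule 1 clone was passed over on each side, 4931428L18Rik (6.63, adjusted p = 2.8e-07) in retina and 1700042O10Rik (-7.48, adjusted p = 1.3e-20) in pineal gland, and the difference of 1700042O10Rik exceeds those of all other tested genes higher in pineal gland. Among the genes kept in pineal gland, Cnpy1 came first, with 19.5, 24.2 and 41.7 in the retina pools, against 6281, 7863 and 7489.8 in the pineal pools (-7.37 ± 0.27, adjusted p = 6.9e-19). Spink4, a secreted protease inhibitor gene, read 26.7, 27.6 and 27.1 in the retina pools, against 6143, 7159 and 7196 in the pineal pools (-7.31 ± 0.27, adjusted p = 4.2e-19). Dlk1, a Notch-related ligand gene, differed by -7.23 ± 0.22, Esm1 by -7.19 ± 0.31, the tachykinin Tac4 by -7.09 ± 0.20, Ccn3 by -7.07 ± 0.25, the forkhead factor Foxc2 of mesenchyme by -6.91 ± 0.21 and Shisa3 by -6.32 ± 0.21. The remaining places were held by Gch1, Ddc, Tph1, Chrnb4, Col3a1, S100a9 and Igkv8-30, an immunoglobulin segment (-6.66 ± 0.31). The tachykinin genes stood at opposite ends, Tac1 at 6.53 and Tac4 at -7.09.

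The tissue difference by night was measured in other pools: in control mice at ZT20 8209 genes passed (63.5%), of which 2684 genes were higher in retina (20.8%) and 5525 in pineal gland (42.7%). The change of the difference between day and night passed for 139 of 12928 genes (1.08%), 85 with a larger retina-minus-pineal value by day (0.657%) and 54 with a larger one by night (0.418%). Aanat was -3.18 ± 0.24 at ZT6, against -6.40 ± 0.24 at ZT20, a change of 3.22 ± 0.34, adjusted p = 8.7e-07. At ZT6 it read 56.6, 43.7 and 40.7 in the retina pools, against 387, 608 and 708 in the pineal pools. At ZT20 it read 44.1, 25.2 and 48.1 in the retina pools, against 4715, 3549 and 5602 in the pineal pools. Cry1 changed by 1.45 ± 0.20, adjusted p = 6.7e-05, Per2 by 0.94 ± 0.23, adjusted p = 0.029 and Nr1d1 by -1.72 ± 0.29, adjusted p = 0.00092, so that 3 of 21 clock genes changed. Opn1sw changed by -1.80 ± 0.38, adjusted p = 0.0098, with larger retina-minus-pineal values at night, as did Pde6b (-0.67 ± 0.15, adjusted p = 0.013), Prph2 (-0.87 ± 0.21, adjusted p = 0.035) and Mak (-1.30 ± 0.29, adjusted p = 0.015). The phosphodiesterases Pde10a (1.57 ± 0.32, adjusted p = 0.0064), Pde7b (1.39 ± 0.34, adjusted p = 0.034) and Pde4b (0.88 ± 0.20, adjusted p = 0.021) changed the other way. The calls of Per2, Prph2, Pde7b and Pde4b were each lost when some single pools were left out, as was that of Mak without retina ZT6 pool 3 or pineal ZT20 pool 3 and that of Pde6b without pineal ZT20 pool 1. With the mean of all probe sets Per2, Pde10a and Pde4b did not pass.

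In cKO mice at ZT6 the tissue difference was set against that of controls. In cKO 3343 genes were higher in retina (25.9%) and 4190 in pineal gland (32.4%), together 58.3%. The difference of differences passed for 729 genes (5.64%), 26 with a larger retina-minus-pineal value in controls (0.201%) and 703 with a larger one in cKO (5.44%), and this split depends on the scaling, with 1932 and 354 after centring of array medians, and on the pools: the second count was 412 without pineal control pool 3, 458 without pineal control pool 2 and 400 without retina cKO pool 2. Immune lists made up part of it: 16 of 19 microglia and macrophage genes and 12 of 16 genes of antigen presentation and interferon response passed. The microglia median was -2.80 in controls and -0.99 in cKO. Gfap, higher in pineal gland in controls (-1.17 ± 0.25), was 1.61 ± 0.25 in cKO, a change of -2.78 ± 0.35, adjusted p = 7.7e-06. Among photoreceptor genes the rod list had 0 members that passed in this contrast, the cone list 1 (Gnb3, -0.66 ± 0.12, adjusted p = 0.00085) and the outer segment list 1 (Aipl1, 0.97 ± 0.25, adjusted p = 0.015). The call of Gnb3 was lost with array medians centred (-0.13, adjusted p = 0.45) and that of Aipl1 without a variance trend (adjusted p = 0.058). Aipl1 was 0.41 ± 0.17 in controls and -0.56 ± 0.17 in cKO.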

How the data were processed

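Signal intensities of 24 Mouse Genome 430 2.0 arrays were used as deposited. Per the labels' protocols, RNA of pooled tissue was amplified with a Nugen Ovation kit, and the submitters' processing notes name the software GCOS but no version or settings. The values are linear intensities from the authors' table, not log2 values. The probe set of the highest mean over the 24 arrays stood for a gene, by GEO's platform annotation (34958 of 45101 probe sets carry 1 symbol). Genes above the array median on at least 3 arrays were tested on log2(signal + 16) with limma 3.58.1 in R 4.3.3 (lmFit, eBayes with a variance trend, 8 group means, two-sided, Benjamini-Hochberg, adjusted p below 0.05). Each adjusted p in the text is from limma. The script was tested on simulated data. Members and the 38 lists, of which 586 of 650 entries matched a probe set, were chosen with earlier results of these data known, and lists carry no test. Named genes are list members, Neurod1, the 15 largest differences each way whose pools do not overlap, and the 5 largest interactions each way, passing over clones, predicted and sex-linked genes. Alternatives covered the offset, scaling, filter, probe set, block, arrays in the fit and each pool left out. Promoters are RefSeq sequences of GRCm38.p6.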

Additional observations from a re-analysis of the deposited data

Results flagged for a closer look

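The difference between retina and pineal gland was tested against that of another time and another genotype, and 139 and 729 genes passed in those tests. Between day and night, the retina-minus-pineal value was larger by day for Gng4 (4.40), E2f8 (4.02), Cpm (3.54), Tunar (3.49) and Mctp2 (3.24), the change in log2 difference being in brackets. Gng4, a G protein gamma subunit, read 1664, 1276 and 1301 in retina and 96.9, 103 and 98.6 in pineal gland at ZT6, and 1444, 1055 and 1308 in retina and 2671, 1195 and 3219 in pineal gland at ZT20. Its retina signals were alike at both times, and its tissue difference had opposite signs. E2f8, a factor of the cell cycle, read 70.4, 84.2 and 84 in pineal gland at ZT6 and 1692, 803 and 1917 at ZT20, and was near the floor in all retina pools. The value was larger by night for Sema5b (-2.24), Clca1 (-2.12), Kif26b (-2.01), Cntn4 (-1.91) and Opn1sw (-1.80). The calls of Sema5b, Clca1 and Kif26b were each lost without some single pools. Opn1sw read 4742, 4219.8 and 4347 in retina and 173, 665 and 242 in pineal gland at ZT20.

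Between genotypes at ZT6, the retina-minus-pineal value was larger in cKO for Tal2 (-5.48), Lcn2 (-4.37), Slc6a2 (-3.59), Fgf2os (-3.37) and Ccl12 (-3.34). Tal2, a bHLH factor, read 3.5, 8.4 and 18 in retina and 1111, 1043 and 1044 in pineal gland of controls, and 875, 1542 and 1254 in retina and 1190.4, 913 and 1356 in pineal gland of cKO mice. Its pineal signals were alike in both genotypes. Lcn2, a secreted acute phase protein gene, read 190.5, 119.9 and 221 in retina and 399.8, 259.9 and 485 in pineal gland of controls, and 1277, 2222 and 1378 in retina and 128, 143 and 157 in pineal gland of cKO mice. The value was larger in controls for Iglv1 (2.86), Agr2 (2.71), Csrp3 (2.60), Doc2b (2.59) and Cldn23 (2.56). Iglv1, an immunoglobulin segment, read 0.9, 1.2 and 4.9 in retina and 53.6, 34.9 and 59.6 in pineal gland of controls, and 1.3, 4.4 and 1.6 in retina and 1100.3, 196.2 and 426.5 in pineal gland of cKO mice. Its call was lost with an offset of 1 (adjusted p = 0.064) and with the mean of all probe sets (1.08, adjusted p = 0.081). Doc2b, a calcium sensor of vesicle release, was 3.93 ± 0.28 in controls and 1.34 ± 0.28 in cKO.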

How the results depend on the processing

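Counts of genes higher in retina moved most with the scaling of arrays. Against 2498 on the deposited scale they were 3886 with array medians centred, 4263 after quantile normalisation and 4150 with trimmed means equalised. The day and night contrast (85 larger by day, 54 by night) gave 162 and 126, 286 and 265, and 237 and 201 under these scalings. The genotype contrast (26 larger in controls, 703 in cKO) gave 1932 and 354 with medians centred, and 306 and 222 larger in controls with quantile and trimmed mean scaling. Leaving out single pools gave 48 to 110 and 20 to 98 in the day and night contrast and, for the 703, 400 (without retina cKO pool 2) to 955 (without retina cKO pool 1), with the lows of the day and night contrast without pineal ZT20 pools 3 and 1. The 85 also moved by over 1.5 times without pineal ZT6 pool 1 (53), and the 54 without pineal ZT6 pools 2 (28) and 3 (31), pineal ZT20 pools 2 (98) and 3 (29), retina ZT6 pool 3 (33) and retina ZT20 pools 1 (34) and 3 (28). The cause of these moves was not tested. List members higher in retina and pineal gland (203 and 231) stayed within 1.5 times under all alternatives run. Some named genes gained a call. Crx, Rbp3, Tulp1, Rpgrip1, Ctbp2, Stx3, Mef2d, Rax, Arntl and Per1 did not pass on the deposited scale. All of them passed as higher in retina with medians centred and with quantile and trimmed mean scaling.

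Named genes whose difference turned its sign were few. Dbp was 0.22, 0.23 and 0.23, Pde6g 0.18, 0.11 and 0.20 and Vipr2 0.14, 0.15 and 0.14 under centred, quantile and trimmed mean scaling, and with trimmed means Cdhr1 was 0.0040 and Ptgds 0.0090. Mbp was -2.73 when cross-hybridising probe set types were avoided. With the mean of all probe sets Mbp was -1.49, Crx -0.046, Rgs9 -0.24 and Stx3 -0.52. With single pools left out, signs turned for genes near 0, over the ranges -0.17 to 0.057 for Dbp, -0.069 to 0.20 for Nr1d1, -0.00051 to 0.10 for Rbp3, -0.019 to 0.16 for Rpgrip1 and -0.039 to 0.15 for Tulp1. The labels do not say whether same-numbered pools of the 2 tissues came from the same mice, and the pools were treated as unpaired. Deviations of same-numbered pools correlated at 0.070, -0.18 and 0.036, which with 3 pools a tissue cannot settle this. A replicate block over 24 arrays gave 2494 higher in retina and 6026 in pineal gland, and over the 6 arrays alone 2245 and 5512, where Gnb1 no longer passed (adjusted p = 0.059). The offset shrinks the differences of dim genes, so differences of weak signals are understated. With 3 arrays a group, standard errors were wide for some bright genes whose pools varied, such as Mip (1.00) and Crygb (0.93).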

Other observations

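Gene families, some members of which are also in the lists, were examined after their values had been seen, and their counts are descriptions. Of 52 tested potassium channel genes 35 were higher in retina and 12 in pineal gland, against 19.3% and 46.7% of all genes. Kcnj3, an inward rectifier gated by G proteins, read 1380.4, 1178 and 1518 in the retina pools, against 12.7, 18.5 and 27 in the pineal pools (5.29 ± 0.21, adjusted p = 4.7e-18), and Kcnc2, a channel of fast-spiking neurons, differed by 5.22 ± 0.30. Kcne4, an accessory subunit, read 30, 26.3 and 63.4 in the retina pools, against 979, 1311 and 1346 in the pineal pools (-4.50 ± 0.27, adjusted p = 9.5e-15). Of 32 sodium, calcium and HCN channel genes 24 were higher in retina and 6 in pineal gland. Scn1a, a neuronal sodium channel, differed by 5.70 ± 0.44, and Hcn3, a hyperpolarisation-activated channel, was higher in pineal gland (-2.90 ± 0.27). Of 18 Rgs genes, whose proteins speed the end of G protein signals, 12 were higher in retina and 6 in pineal gland, from Rgs8 (4.89 ± 0.23) to Rgs18 (-3.73 ± 0.28).

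Of 35 collagen chain genes 9 were higher in retina and 19 in pineal gland, near the shares of all genes. Col9a1, a chain found in the vitreous, read 2631, 2072 and 1992 in the retina pools, against 26.5, 63.6 and 76.5 in the pineal pools (5.04 ± 0.34, adjusted p = 1.5e-13), and the fibrillar chain Col2a1 of vitreous and cartilage differed by 3.54 ± 0.26. Col5a2 read 27.7, 19.9 and 26.2 in the retina pools, against 1274, 1588 and 1335 in the pineal pools (-5.12 ± 0.29, adjusted p = 3.8e-15). Connexins differed by tissue too: the lens connexin Gja3 by 5.41 ± 1.05, and Gjb6, a connexin of glia and meninges, by -5.60 ± 0.28. Of 24 kinesin genes 10 were higher in retina and 9 in pineal gland.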
